A study of Homo sapiens with 6 samples.

Results

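The primary cilium is a single, non-motile projection of the plasma membrane that is built on a basal body and senses flow and signals in kidney tubule cells. It is assembled by intraflagellar transport (IFT), in which IFT-B particles carried by the motor kinesin-II move cargo toward the tip and IFT-A particles serve the return journey and the entry of membrane proteins. The BBSome carries receptors out of the cilium, the transition zone gates its base, and the polycystins PKD1 and PKD2 are membrane proteins of the cilium whose loss causes polycystic kidney disease. VHL, the tumor suppressor that targets hypoxia-inducible factors for degradation, is known for a separate role in maintaining the cilium of kidney cells.

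The genes described here are 40 components of the primary cilium, chosen by name, among 60708 genes in the count table. All 40 were found once and all had at least 10 reads in every sample, so none entered through the higher group alone. They fall into IFT-B (11 genes), IFT-A (5), kinesin-II (2), the BBSome (7), the BBSome recruitment factor ARL6 with the chaperonin-like BBS10 and BBS12 (3), the transition zone (10) and the polycystins (2).

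RNA sequencing was performed on Caki-1 cells, a human clear cell renal carcinoma line. The VC group (3 samples) was the vector control and had wild-type VHL. The VHL-KO group (3 samples) came from cells infected with a lentiviral CRISPR vector encoding a guide RNA to VHL. Cells infected with the guide virus were selected with puromycin. The methods of the study do not describe how the VC cells that were sequenced were infected or selected. The VHL-KO cells were clonal, so differences between the groups include whatever set the clone apart. It was not stated whether the replicates were separate clones or cultures, and the p-values measure only the spread between these samples, which may be technical. Total counts were 31789923, 28463579 and 34881739 in VC and 29139722, 22805385 and 22628246 in VHL-KO. The RNA levels below do not measure cilia, and in a bulk culture fewer cells with a transcript and less of it per cell cannot be told apart.

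VHL, the targeted gene, lies at chr3:10141778-10153667 on the plus strand of GRCh38. The study designed a pair of guides to human VHL, and both match the coding part of exon 1 without mismatch. They are shown because they define the knockout, with the adjoining PAM in capitals. Guide 1 matches the plus strand at chr3:10142103-10142122 and guide 2 the minus strand at chr3:10142091-10142110; which of them gave the sequenced cells was not stated.
Guide 1: cccgtatggctcaacttcgaCGG
Guide 2: catacgggcagcacgacgcgCGG

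For VHL the reads counted were 1454, 1124 and 1522 (VC) and 929, 657 and 650 (VHL-KO). All 3 VHL-KO samples were below all 3 VC samples. In CPM after normalization by trimmed mean of M-values (normalized CPM), the level was 40.2 ± 2.38 (SD, n = 3) in VC and 31.9 ± 2.49 (SD, n = 3) in VHL-KO. VHL fell by 0.33 on the log2 scale (SE 0.11, edgeR adjusted p = 0.0109). Here and below the adjusted p is the quasi-likelihood result of edgeR after Benjamini-Hochberg adjustment over all 17401 genes tested, and a gene is called higher or lower in VHL-KO when it is under 0.05. The VHL call was lost without VC 1 (-0.28), without VHL-KO 2 (-0.30) and with upper quartile scaling (-0.22). A guide that disrupts the reading frame need not remove the transcript, so the RNA level is a weak check of a knockout. A gene on the opposite strand covers 23.5% of VHL's exonic bases, and strand-specific counting was not stated, which makes the level uncertain.

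The label Caki-1 was checked against markers of kidney epithelium and of other cells. Of 8 renal epithelial and carcinoma markers, PAX8, KRT8, KRT18 and VIM were abundant in every sample, the first 3 of them called higher in VHL-KO (PAX8 0.52, KRT8 0.51, KRT18 0.37), PAX2 was at 0 in all 6 samples, EPCAM was low and called lower (1.33 to 0.49 normalized CPM), CDH2 was called lower (-0.45), and the summed level ran from 7597 to 8737 normalized CPM in VC and from 8023 to 8582 in VHL-KO, most of it VIM. CA9, a target of hypoxia-inducible factors, went from 0, 0 and 2 reads (VC) to 288, 247 and 233 (VHL-KO). Genes on the opposite strand cover 35.7% of the exonic bases of CA9, 24.6% of those of VIM and 22.4% of those of PAX8, so these levels are uncertain. The motile cilium markers were near 0 except CCDC40, DNAH5 and CFAP43, which were tested and not called. FOXJ1, the regulator of motile cilia, had 2, 2 and 7 reads (VC) and 0 in every VHL-KO sample. The summed motile markers were 13.50, 15.38 and 11.67 normalized CPM in VC and 16.85, 13.53 and 15.99 in VHL-KO, with CCDC40 the most abundant. The leukocyte markers PTPRC, CD3E and NKG7 and the endothelial and fibroblast markers CDH5, TEK, COL3A1 and DCN had at most 3 counts in any sample. Of the leukocyte list, summed at 1.992, 2.356 and 1.501 in VC and 4.792, 5.469 and 3.893 in VHL-KO, the most abundant was CD14, which rose from 1.56 to 4.31 normalized CPM. The endothelial and fibroblast list summed to 43.4, 47.4 and 37.2 in VC and 30.6, 27.5 and 26.0 in VHL-KO, led by COL1A1. Within this list PECAM1 was called higher (0.07 to 0.42 normalized CPM) while PDGFRB (8.90 to 2.32) and COL1A1 (33.7 to 25.2) were called lower, so the sum joins opposite changes.

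Libraries VC 2 and VC 3 stood apart from each other by GC content, the share of G and C in the exons. Among the 40 cilium genes, the deviation of a library from its group mean had a Spearman correlation with GC content of 0.827 in VC 2 and -0.829 in VC 3 (across n = 40 genes, which are not independent replicates), against -0.115 in VC 1 and -0.26 to 0.142 in the VHL-KO libraries. The 14 cilium genes with GC content under 40% had a median deviation of -0.25 in VC 2 and 0.25 in VC 3 on the log2 scale. The counts of cilium genes called are therefore given with and without these libraries.

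Across the table, 59.7% of the 17401 tested genes were called, 28.5% higher and 31.2% lower in VHL-KO. Of the 40 cilium genes, 13 were higher (32.5%), 9 were lower (22.5%) and 18 were not called. The median log2 fold change was 0.04 over the cilium genes and -0.01 over all genes tested, and the cilium genes ranged from -1.23 (BBS10) to 1.23 (BBS1). Changes of at least 2-fold were seen for BBS1, B9D1 and PKD1 among the rises and for BBS10 and RPGRIP1L among the falls. Of the 17401 genes tested, 2419 were called with a rise and 2136 with a fall of at least 2-fold. The 40 genes together summed to 597, 573 and 598 normalized CPM in VC and 650, 655 and 642 in VHL-KO. Their summed reads were 20397, 17025 and 22690 in VC and 17356, 14141 and 13686 in VHL-KO. Divided by the total counts alone, these sums overlapped between the groups, so their separation depended on the scaling. Without VC 2 there were 11 higher and 9 lower, and without VC 3 there were 13 and 9. The balance of rises and falls depended on the scaling, in the cilium genes and in all genes. Library size alone, which moved the median of all genes to -0.20, gave 7 cilium genes higher and 12 lower, beside 3764 and 6737 of all genes. Upper quartile scaling, which moved that median to 0.10, gave 13 higher and 7 lower, beside 5712 and 4668 of all genes. The median of the cilium genes stayed 0.046 to 0.051 above that of all genes under these scalings and the one used here. A scaling shifts all genes nearly alike, so this range does not show that the gap was stable. The gap was 0.0068 without VC 2, 0.13 without VHL-KO 3 and 0.041 to 0.052 when any other sample was left out. Requiring 10 reads of each sample made it 0.10, and dropping the filter beyond 1 count made it 0.031. Offsets for GC content and length gave 17 higher and 4 lower of the 40 cilium genes, beside 29.0% higher and 31.3% lower of all genes, and the median of the cilium genes was then 0.23 above that of all genes. Whether the shares of the cilium genes differ from those of all genes was not tested.

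**Figure D1:**
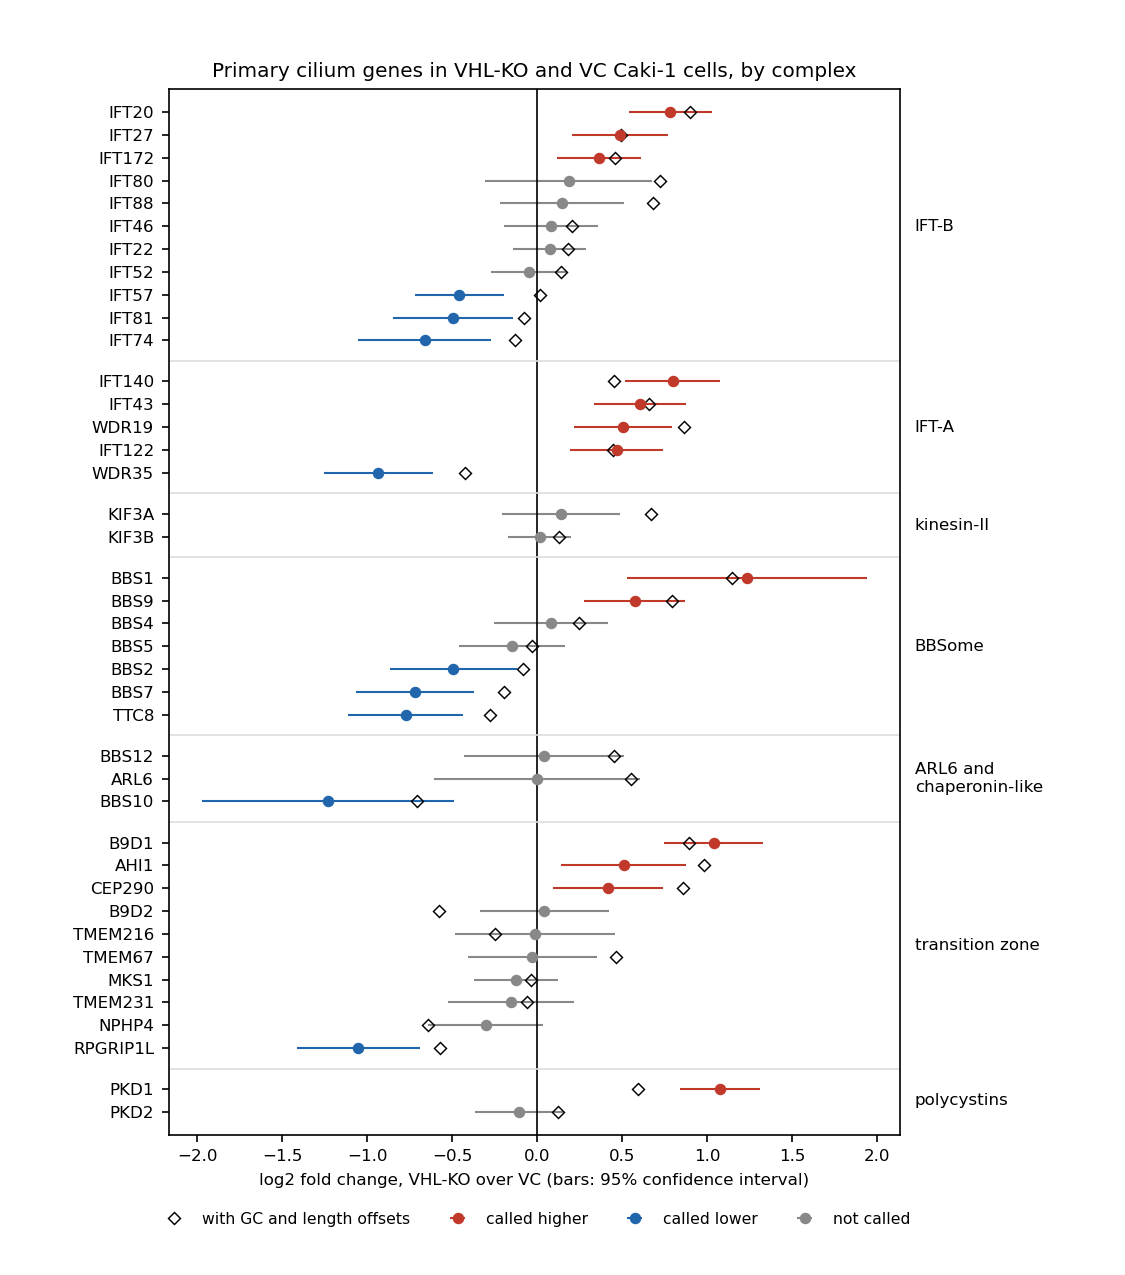
Log2 fold change of each cilium gene, VHL-KO over VC, by complex (filled points, with 95% confidence intervals; 3 samples a group) and the value with GC content and length offsets (open diamonds). Points to the right of 0 are higher in VHL-KO; in IFT-A 4 genes lie to the right and WDR35 to the left, and the diamonds of most genes called lower lie nearer to 0 than their points.

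**Figure D2:**
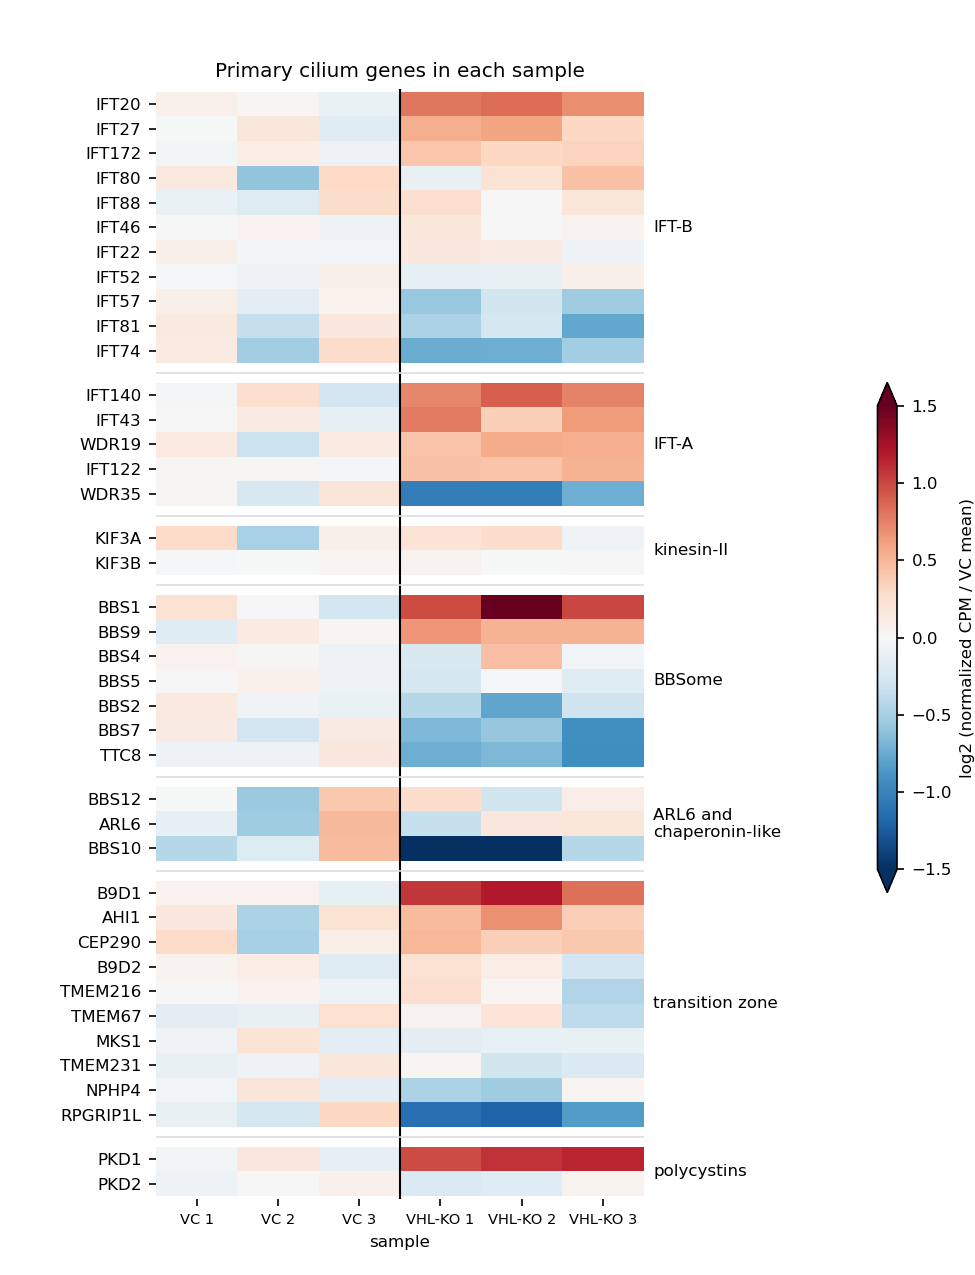
Each cilium gene in each sample as the log2 ratio of its normalized CPM to the mean of the VC samples, red above and blue below, with the colors ending at -1.5 and 1.5. The 3 VHL-KO columns are alike for IFT20, WDR35, B9D1, RPGRIP1L and PKD1, and the VC 2 column is blue for several genes that were not called, such as IFT80 and KIF3A.

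The cilium genes were expressed at unequal levels per length, also within a complex. Levels of whole complexes were not compared. In VC cells KIF3B (53.9 ± 1.8 TPM, SD, n = 3) and IFT52 (50.4 ± 3.69 TPM, SD, n = 3) had the highest TPM, a measure of transcripts corrected for length and depth, and their values differed by less than the spread between samples. IFT57 (24.4 ± 2.47 TPM) and IFT22 (22.2 ± 1.01 TPM) came next and did not differ beyond their spread either. KIF3A, the partner of KIF3B in the kinesin-II motor, stood at 6.06 ± 1.59 TPM. The IFT-A genes lay between 1.70 (IFT122) and 13.6 TPM (IFT43), and the BBSome genes between 0.39 (BBS1) and 9.55 TPM (BBS4). PKD2, at 12.8 ± 0.91 TPM, was above PKD1, at 4.04 ± 0.39 TPM. Lengths were those of all annotated exons of a gene joined together, which lowers the TPM of genes with many alternative exons.

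**Figure D3:**
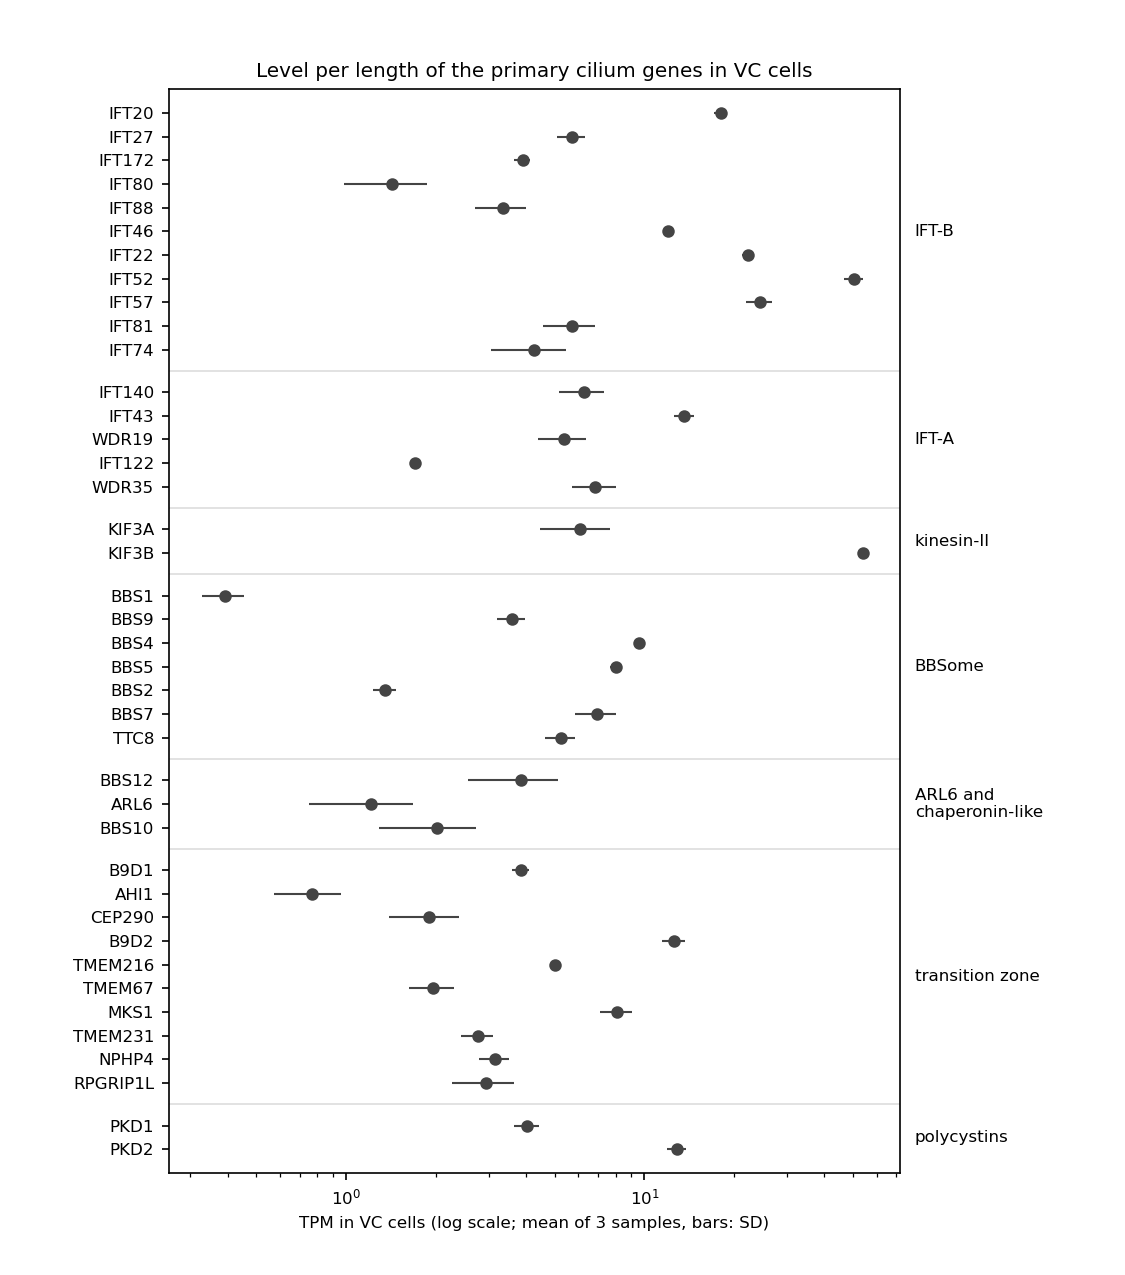
Level per length of each cilium gene in VC cells, in TPM on a log scale (mean of 3 samples, bars SD), by complex. KIF3B and IFT52 are the highest, near 50 TPM, and BBS1 and AHI1 are the lowest, below 1 TPM.

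Of the 5 IFT-A genes, 4 were called higher and 1 lower. None of them overlapped between groups, as was the case for 20 of the 40 cilium genes and 11253 of the 17401 genes tested. IFT140, a core subunit, had 14.7, 17.8 and 12.3 normalized CPM in VC and 24.8, 27.8 and 25.0 in VHL-KO. Every VHL-KO sample was thus above every VC sample, and IFT140 rose by 0.80 on the log2 scale (SE 0.14, edgeR adjusted p = 2.01e-05). IFT43, a small subunit, had 16.7, 18.1 and 15.1 normalized CPM in VC and 28.5, 21.3 and 25.9 in VHL-KO. The groups did not overlap, although VHL-KO 2 was lower than the other VHL-KO samples, and the log2 fold change was 0.60 (SE 0.13, edgeR adjusted p = 0.000349). WDR19 (0.50) and IFT122 (0.47), the remaining core subunits, were also called higher. With library size alone the calls of WDR19 (0.31) and IFT122 (0.27) were lost and those of IFT140 and IFT43 were not. With GC content and length offsets all 4 were still called higher, IFT140 at a smaller log2 fold change (0.45), WDR19 at a larger one (0.86), IFT43 at 0.66 and IFT122 at 0.45.

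WDR35, the subunit also known as IFT121, went the other way. It had 15.8, 13.2 and 17.9 normalized CPM in VC and 7.60, 7.60 and 9.38 in VHL-KO. The highest VHL-KO sample was below the lowest VC sample, and WDR35 fell by 0.94 on the log2 scale (SE 0.16, edgeR adjusted p = 1.33e-05). With GC content and length offsets the fall was smaller (-0.42) and still called. The gene lies at chr2:19910263-19990105 and its exons have a GC content of 37.8%. Summed over IFT-A, the level was 74.2, 72.0 and 72.1 normalized CPM in VC and 95.5, 92.7 and 97.3 in VHL-KO, so the sum was higher in every VHL-KO sample.

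IFT-B was divided, with 3 of 11 genes higher, 3 lower (27.3% each) and 5 not called. These shares were near those of all genes tested, 28.5% higher and 31.2% lower. The median log2 fold change of IFT-B was 0.08, which turned to -0.11 with library size alone (1 higher, 3 lower). The median was 0.04 without VHL-KO 1, 0.19 with upper quartile scaling and 0.20 with the offsets. IFT20, which links the ciliary particle to the Golgi, had 18.0, 17.3 and 15.9 normalized CPM in VC and 29.8, 30.4 and 27.5 in VHL-KO. All VHL-KO samples were higher, and IFT20 rose by 0.78 on the log2 scale (SE 0.12, edgeR adjusted p = 3.92e-06). IFT27, a small GTPase that joins the particle to the BBSome, had 13.33, 15.04 and 11.75 normalized CPM in VC and 19.47, 20.11 and 16.56 in VHL-KO. The groups were again separate, with a log2 fold change of 0.49 (SE 0.14, edgeR adjusted p = 0.0038) that was no longer called with library size alone (0.30). IFT172, the largest subunit, was higher by 0.36 on the log2 scale, a call lost without VC 1 (0.35) and with library size alone (0.17).

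IFT74 and IFT81, which together bind tubulin for transport, were both called lower. IFT74 had 9.96, 6.29 and 10.9 normalized CPM in VC and 5.43, 5.47 and 6.33 in VHL-KO. VC 2 lay within the range of the VHL-KO samples while VC 1 and VC 3 lay above it, so the groups overlapped, and IFT74 fell by 0.66 on the log2 scale (SE 0.19, edgeR adjusted p = 0.00416). IFT81 had 12.89, 9.121 and 13.01 normalized CPM in VC and 8.386, 9.686 and 6.801 in VHL-KO. Here too VC 2 overlapped with the VHL-KO samples, and IFT81 fell by 0.50 on the log2 scale (SE 0.17, edgeR adjusted p = 0.0154). The IFT81 call was lost without VC 1 (-0.41), without VHL-KO 3 (-0.37) and with upper quartile scaling (-0.38). IFT57, whose groups did not overlap, was also called lower (-0.46). With GC content and length offsets none of the 3 falls was called, at -0.13 for IFT74, -0.08 for IFT81 and 0.01 for IFT57.

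The IFT-B genes that were not called were IFT22, IFT46, IFT52, IFT80 and IFT88, with log2 fold changes from -0.05 (IFT52) to 0.18 (IFT80). IFT80 and IFT88 were called higher with the offsets (0.72 and 0.68). A gene on the opposite strand covers 59.0% of the exonic bases of IFT22, and other genes cover 27.6% of those of IFT80 on the same strand, so both levels are uncertain.

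The kinesin-II motor subunits were not called, with a median log2 fold change of 0.08 that turned to -0.12 with library size alone. The median was -0.0019 without VC 2, 0.16 without VC 1 and 0.40 with the offsets. KIF3A had 14.9, 8.68 and 12.9 normalized CPM in VC and 14.0, 14.6 and 11.6 in VHL-KO. VC 2 was the lowest of the 6 samples and the groups overlapped, with a log2 fold change of 0.14 (95% confidence interval -0.21 to 0.49, edgeR adjusted p = 0.487). KIF3B had 95.1, 95.6 and 98.3 normalized CPM in VC and 99.7, 95.6 and 96.4 in VHL-KO. These samples were alike in both groups, and the log2 fold change was 0.01 (95% confidence interval -0.17 to 0.20, edgeR adjusted p = 0.905). KIF3A, with a GC content of 37.9%, was called higher with the offsets (0.67).

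The BBSome was divided as well, with 2 of 7 genes higher (28.6%), 3 lower (42.9%) and 2 not called. Of all genes tested, 28.5% were higher and 31.2% lower. The offsets gave 2 BBSome genes higher and none lower. BBS1, the subunit that binds ARL6, was counted at 28, 21 and 22 reads (VC) and 37, 47 and 30 (VHL-KO). In normalized CPM, 0.82, 0.71 and 0.58 in VC and 1.39, 2.18 and 1.41 in VHL-KO, the VHL-KO samples were all higher. The log2 fold change was 1.23 (SE 0.34, edgeR adjusted p = 0.00329), with a 95% confidence interval of 0.53 to 1.94 that reflects the low counts. Other genes cover 54.0% of the exonic bases of BBS1 on the same strand and 25.0% on the opposite strand, so its level is uncertain. BBS9, a scaffold subunit, had 8.32, 10.3 and 9.67 normalized CPM in VC and 14.9, 13.5 and 13.6 in VHL-KO. The groups were separate, and BBS9 rose by 0.57 on the log2 scale (SE 0.14, edgeR adjusted p = 0.00151).

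TTC8, also known as BBS8, had 9.02, 9.09 and 10.7 normalized CPM in VC and 5.77, 6.03 and 5.02 in VHL-KO. All VHL-KO samples were lower, and TTC8 fell by 0.78 on the log2 scale (SE 0.16, edgeR adjusted p = 0.000255). BBS7 had 10.8, 8.28 and 10.9 normalized CPM in VC and 6.25, 6.67 and 5.30 in VHL-KO. It was also lower in every VHL-KO sample, and fell by 0.72 on the log2 scale (SE 0.17, edgeR adjusted p = 0.000737). BBS2 was called lower (-0.49), a call lost without VC 1 (-0.41), without VHL-KO 2 (-0.37) and with upper quartile scaling (-0.38). None of these 3 falls was called with GC content and length offsets, at -0.28 for TTC8, -0.20 for BBS7 and -0.09 for BBS2, while BBS1 and BBS9 were still called higher. BBS4 (0.08) and BBS5 (-0.15) were not called, and exons of another gene cover 23.5% of the exonic bases of BBS5 on the same strand.

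Of the genes that recruit or assemble the BBSome, BBS10 was called lower. BBS10, a chaperonin-like protein, was counted at 53, 54 and 110 reads (VC) and 13, 15 and 33 (VHL-KO). In normalized CPM, 1.55, 1.82 and 2.90 in VC and 0.49, 0.70 and 1.55 in VHL-KO, the highest VHL-KO sample was just below the lowest VC sample. BBS10 fell by 1.23 on the log2 scale (SE 0.36, edgeR adjusted p = 0.00496), and the call was lost without VC 3 (-0.89) and with the offsets (-0.71). BBS12, its relative, had 3.837, 2.625 and 5.084 normalized CPM in VC and 4.605, 3.151 and 4.127 in VHL-KO. The groups overlapped, with a log2 fold change of 0.04 (95% confidence interval -0.43 to 0.51, edgeR adjusted p = 0.896). ARL6, the small GTPase that brings the BBSome to membranes, had 1.46, 1.11 and 2.27 normalized CPM in VC and 1.27, 1.81 and 1.83 in VHL-KO. VC 2 was again the lowest sample and VC 3 the highest, and the log2 fold change was -0.0019 (95% confidence interval -0.61 to 0.60, edgeR adjusted p = 0.996).

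Among the 10 transition zone genes, 3 were called higher, 1 lower and 6 not called, a balance that turned to 1 higher and 3 lower with library size alone. The counts were 1 and 1 without VC 2, 3 and 2 without VC 3, 2 and 2 without VHL-KO 3, and 4 and 3 with the offsets. B9D1, a B9 domain protein of the Meckel syndrome module, had 10.05, 9.996 and 8.693 normalized CPM in VC and 19.92, 22.01 and 17.03 in VHL-KO. The lowest VHL-KO sample was well above the highest VC sample, and the log2 fold change was 1.04 (SE 0.14, edgeR adjusted p = 7.94e-07), or 2.05-fold. Exons of MAPK7 and EPN2 on the opposite strand cover 29.3% of the exonic bases of B9D1, which makes its level uncertain. B9D2, its partner in the same module, was not called (0.04), and was called lower with the offsets (-0.58). AHI1, mutated in Joubert syndrome, had 7.91, 5.08 and 8.24 normalized CPM in VC and 9.81, 11.4 and 9.15 in VHL-KO. The VHL-KO samples were all higher, with VC 2 the lowest, and the log2 fold change was 0.51 (SE 0.18, edgeR adjusted p = 0.0172). The AHI1 call was lost without VC 2 (0.34), without VHL-KO 2 (0.42) and with library size alone (0.31).

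CEP290, which bridges the microtubules and membrane of the transition zone, was called higher (0.41), a call lost without VC 2 (0.24), without VHL-KO 1 (0.38), without VHL-KO 3 (0.43) and with library size alone (0.22). With GC content and length offsets AHI1 and CEP290 rose further, to 0.98 and 0.86. RPGRIP1L, a scaffold of the transition zone, had 11.3, 10.2 and 15.3 normalized CPM in VC and 5.62, 5.28 and 6.85 in VHL-KO. Every VHL-KO sample was below every VC sample, and RPGRIP1L fell by 1.05 on the log2 scale (SE 0.18, edgeR adjusted p = 1.39e-05). Its fall was -0.57 with the offsets and still called. NPHP4, a binding partner of RPGRIP1L, had a log2 fold change of -0.30 and was not called; it was called lower without VC 3 (-0.37), without VHL-KO 3 (-0.50), with library size alone (-0.50) and with the offsets (-0.64). TMEM67, TMEM216, TMEM231 and MKS1 were not called, with log2 fold changes from -0.15 (TMEM231) to -0.02 (TMEM216). TMEM67 was called higher with the offsets (0.46), and MKS1 lower with library size alone (-0.32).

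The polycystins differed from each other. PKD1, at chr16:2088708-2135898, had 21.3, 24.5 and 19.9 normalized CPM in VC and 43.4, 46.5 and 48.5 in VHL-KO. The samples of the groups lay far apart, and PKD1 rose by 1.08 on the log2 scale (SE 0.11, edgeR adjusted p = 1.46e-08), or 2.11-fold. PKD1 has near-identical pseudogenes that can share its reads, so its level is uncertain. The 6 annotated copies with counts, PKD1P1 to PKD1P6, summed to 174, 151 and 206 reads (VC) and 83, 52 and 115 (VHL-KO), beside 726, 729 and 757 reads of PKD1 itself (VC) and 1158, 1004 and 1035 (VHL-KO). Corrected for depth the pseudogene sums were 5.10, 5.08 and 5.43 normalized CPM (VC) and 3.11, 2.41 and 5.39 (VHL-KO). These groups overlapped, with VHL-KO 3 at the level of the VC samples, and sharing of reads with PKD1 was not tested. PKD2 had 19.5, 20.9 and 21.9 normalized CPM in VC and 17.9, 18.3 and 21.6 in VHL-KO. The groups overlapped, with a log2 fold change of -0.11 (95% confidence interval -0.37 to 0.15, edgeR adjusted p = 0.461), and PKD2 was called lower with library size alone (-0.30). With the offsets the rise of PKD1, whose exons have a GC content of 65.8%, was 0.59 and still called.

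The direction of change followed GC content in the cilium genes and in all genes alike. Across the 40 genes the Spearman correlation of log2 fold change with GC content was 0.457 (n = 40 genes), and over all genes with a value it was 0.317 (n = 17355 genes); genes are not independent replicates. Of 14 cilium genes under 40% GC, 2 were higher and 7 lower, with a median of -0.24 beside -0.47 for all genes of that class, of which 13.5% were higher and 51.4% lower. From 40% to 50% the 16 cilium genes had 4 higher and 2 lower and a median of 0.03 beside -0.18, with 20.7% of all genes higher and 36.8% lower. From 50% to 60% the 8 genes had 5 higher and none lower, with a median of 0.48 beside 0.22 and 37.3% of all genes higher and 20.7% lower. The 2 genes above 60%, IFT140 and PKD1, were both higher, as were 51.9% of all genes of that class. In each class the cilium genes had a higher median than all genes. Offsets that remove the trend of each library with GC content and exonic length brought the medians of all genes in each class to between -0.01 and 0.00, and the median of the cilium genes to 0.22. All 13 genes called higher were also called higher with the offsets. Of the 9 called lower, WDR35 and RPGRIP1L were still called lower. These offsets remove any difference that follows GC content, whether it arose in the cells or in the libraries, and the sources were not tested.

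**Figure D4:**
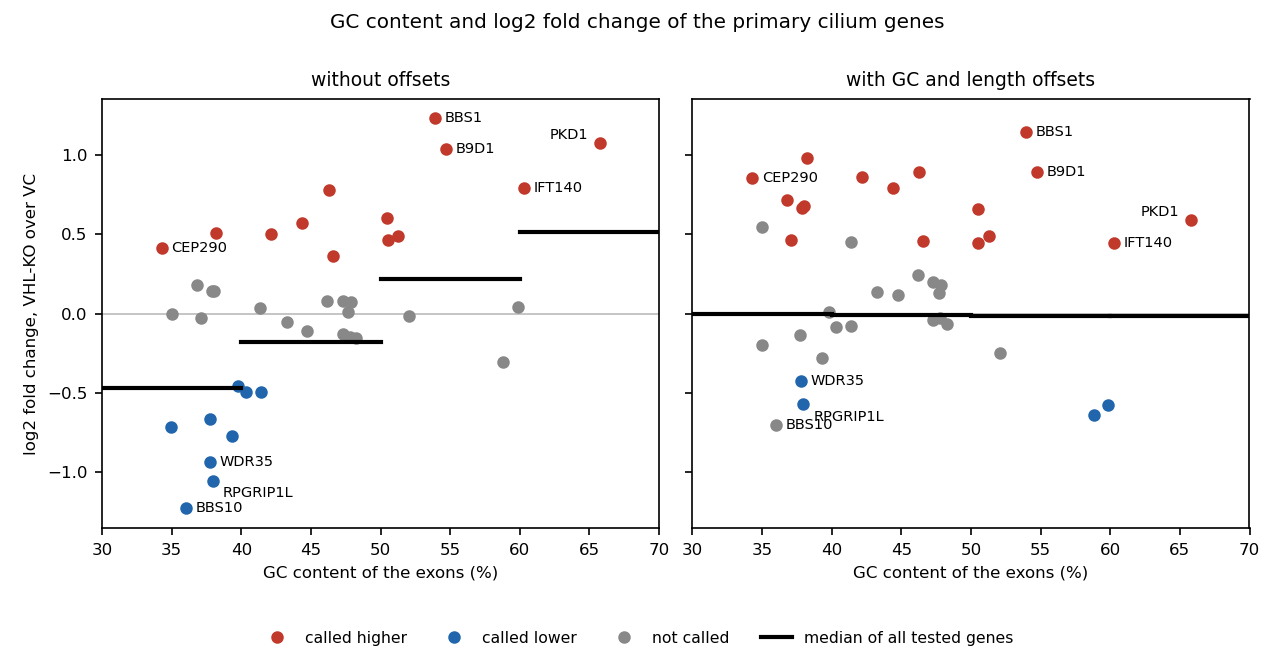
Log2 fold change of the 40 cilium genes (points, colored by call) against the GC content of their exons, without offsets (left) and with GC content and length offsets (right); black lines are medians of all tested genes in classes of GC content. On the left the black lines climb from -0.47 to 0.52 and the genes called lower lie near or below 40% GC; on the right the lines are flat near 0 and 4 genes are called lower.

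Calls of 9 cilium genes held in all 14 alternatives of test, scaling, filter, replicates and offsets. The genes called higher in each were IFT20, IFT43, IFT140, BBS1, BBS9, B9D1 and PKD1, and those called lower in each were WDR35 and RPGRIP1L.

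Many cilium genes carry an X-box, the motif bound by RFX transcription factors, close to the start site. RefSeq promoter windows of GRCh38.p14 matched 36 of the 40 genes. They were searched on both strands for the half-site GTTGCC and for its longer palindromic form, which can contain the half-site. Either motif was present in the windows of 18 of the 36 cilium genes and of 13.2% of all 35116 promoters. Within the 100 bases before the start site a match was present for 11 cilium genes (30.6%) beside 5.13% of all promoters. These 11 were 4 of the 12 genes called higher, 2 of the 8 called lower and 5 of the 16 not called, so genes with a match lay in every class. The core of the HIF binding site, ACGTG, which is also part of the E-box CACGTG, was present for 9 of the 36 genes (25.0%) beside 21.4% of all promoters, among them 4 of the 12 genes called higher (IFT140, IFT172, IFT27, PKD1), 1 of the 8 called lower (IFT81) and 4 of the 16 not called (IFT52, IFT80, KIF3B, PKD2). A match is a description of letters and not evidence of binding.

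The 100 bases before the start site are shown for 7 genes, with X-box matches in capitals, because they place a half-site or palindrome before genes that rose, fell and were not called. IFT122 and TTC8 match only the half-site, and WDR19, AHI1 and IFT57 only the palindrome. WDR19 (plus strand, chr4:39182429-39182528), IFT122 (plus strand, chr3:129440124-129440223) and AHI1 (minus strand, chr6:135497741-135497840) were called higher. IFT57 (minus strand, chr3:108222425-108222524) and TTC8 (plus strand, chr14:88824551-88824650) were called lower. ARL6 (plus strand, chr3:97764658-97764757) and TMEM231 (minus strand, chr16:75556253-75556352) were not called. Each sequence is written from 5′ to 3′ on the strand of its gene and ends at the base before the start site.
WDR19: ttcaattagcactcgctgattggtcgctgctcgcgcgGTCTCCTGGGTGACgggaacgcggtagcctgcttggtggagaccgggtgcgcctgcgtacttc
IFT122: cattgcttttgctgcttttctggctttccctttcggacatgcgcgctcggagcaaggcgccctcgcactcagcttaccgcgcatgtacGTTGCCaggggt
AHI1: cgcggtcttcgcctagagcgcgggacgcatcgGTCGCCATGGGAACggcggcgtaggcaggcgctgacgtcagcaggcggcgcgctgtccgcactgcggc
IFT57: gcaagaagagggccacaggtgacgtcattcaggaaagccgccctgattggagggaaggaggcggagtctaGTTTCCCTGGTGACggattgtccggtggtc
TTC8: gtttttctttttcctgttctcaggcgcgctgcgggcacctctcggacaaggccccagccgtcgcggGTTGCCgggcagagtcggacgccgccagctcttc
ARL6: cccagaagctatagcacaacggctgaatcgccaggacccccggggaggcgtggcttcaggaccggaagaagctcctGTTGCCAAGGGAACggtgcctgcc
TMEM231: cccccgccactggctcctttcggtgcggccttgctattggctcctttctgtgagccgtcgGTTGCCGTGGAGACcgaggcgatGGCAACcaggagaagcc

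Genes of the cilium pathway outside the 40 were listed by function, 77 in all, of which 74 were tested. Of these, 14 were higher (18.9%) and 36 lower (48.6%), with a median log2 fold change of -0.32 that moved to -0.21 with upper quartile scaling, -0.52 with library size alone and -0.16 with the offsets, and lower calls outnumbered higher ones in each of these (18 and 28 with upper quartile scaling, 6 and 46 with library size alone, 19 and 35 with the offsets). For all genes the counts were 5712 higher and 4668 lower, 3764 and 6737, and 5036 and 5425 in the same order. Cilium disassembly genes, listed as AURKA, NEDD9, HDAC6, PLK1, NEK2, TCHP, NDE1 and KIF2A, had none higher and 6 lower of 7 tested, and summed to 513, 517 and 513 normalized CPM in VC and 194, 189 and 191 in VHL-KO. AURKA, a mitotic kinase that also triggers ciliary resorption, fell by 2.23 on the log2 scale (SE 0.10, edgeR adjusted p = 4.04e-15). PLK1, likewise a mitotic kinase, fell by 2.01 (SE 0.10, edgeR adjusted p = 9.76e-15). HDAC6 (0.01) was not called and NEDD9 had too few reads to be tested.

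Of 16 basal body and cilium assembly genes, 3 were higher and 9 lower, with 1 and 12 with library size alone, 4 and 8 with the offsets and 1 and 9 without VHL-KO 2. The largest falls were those of CEP83, a distal appendage protein that helps dock the basal body (-2.09), and KIF24, a kinesin that restrains cilium formation (-2.05). The list thus joins proteins that help assembly with proteins that restrain it, so its counts do not measure a loss of assembly. Among 13 other IFT and ciliary motor subunits, 4 were higher and 4 lower, with DYNC2I1, an intermediate chain of the return motor dynein-2, at 1.47 and TTC30B, which has a near-identical paralog and is uncertain, at -0.93. The median of this list was 0.19 and turned to -0.0049 with library size alone, which gave 2 higher and 6 lower, while upper quartile scaling gave 6 and 2 and the offsets 5 and 2. Its lower calls fell to 2 when VC 1, VC 3 or VHL-KO 3 was left out. Of 16 other transition zone, inversin and ciliary membrane genes, 3 were higher and 7 lower with a median of -0.08, which turned to 0.03 with upper quartile scaling, while library size alone gave 1 higher and 8 lower and the offsets 5 and 7 with a median of -0.12. The largest falls in this list were those of RPGR, a regulator of traffic through the transition zone (-1.23), and TMEM237, a membrane protein of the transition zone (-1.05). Other genes cover 22.1% of the exonic bases of TMEM237 on the same strand, so its level is uncertain. Of 5 other BBSome-associated genes, TRIM32 (-0.60) and BBIP1 (-0.43) were lower and none higher; the BBIP1 call was lost when VC 1 (-0.33), VHL-KO 1 (-0.36) or VHL-KO 3 (-0.42) was left out and with upper quartile scaling (-0.32), and genes on the opposite strand cover 22.8% of its exonic bases. With the offsets BBIP1 stood at 0.06, and the list had 2 higher and 2 lower.

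Of 12 Hedgehog signalling genes, a pathway that runs through the cilium, 4 were higher and 5 lower, with KIF7 at 1.26 and the transcription factor GLI2 at -1.35; upper quartile scaling gave 5 higher and 3 lower, library size alone 2 and 7, and the offsets 3 and 7. Of the RFX factors, 5 of 7 were tested, none was higher and 3 were lower (2 with upper quartile scaling, 4 with library size alone or the offsets). The largest changes among abundant genes were in RFX7 (-1.36) and RFX5 (-0.65). RFX3 was also called lower (-0.61), with overlapping groups, and RFX1 (-0.03) and RFX2 (-0.27) were not called.

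**Figure D5:**
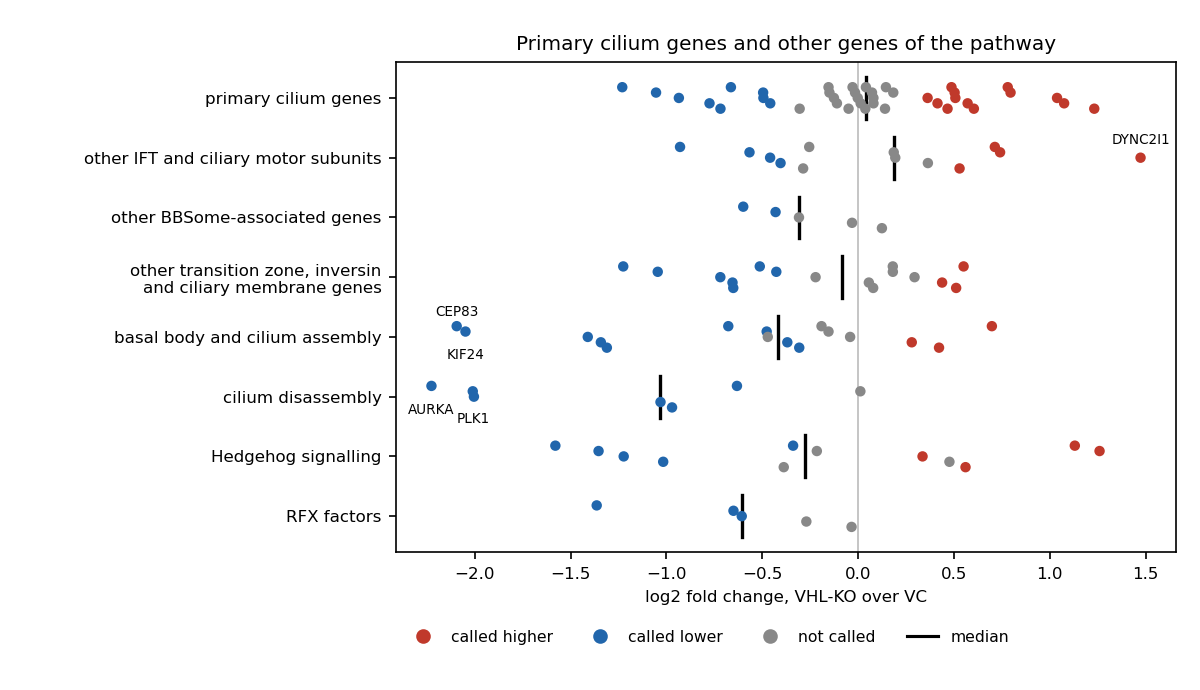
Log2 fold change, VHL-KO over VC, of the 40 cilium genes and of 74 other tested genes of the pathway by list (points colored by call, black bars the list medians). The cilium genes lie on both sides of 0, and the cilium disassembly genes lie below 0 except HDAC6 at 0.01.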

How the data were processed

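Total RNA was sequenced from 3 VC and 3 VHL-KO samples, grouped by their labels. The authors extracted RNA with Trizol, trimmed reads with Trim Galore and Cutadapt, aligned them with STAR to GRCh38.p13, kept uniquely mapped reads with SAMtools and deposited the HTSeq raw count of each gene. Versions were not given in the sources used here. Whether counting used strand was not stated.

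A gene was tested when any sample had 10 reads or more, using edgeR 4.0.16 (R 4.3.3; TMM factors, quasi-likelihood F test, two-sided, Benjamini-Hochberg adjustment over 17401 genes). Alternatives were DESeq2 1.42.0, other scalings and filters, leaving out each sample, a replicate block, and offsets for GC content and exonic length (natural splines, 5 degrees of freedom). The code was tested on simulated counts. Lengths, GC content and overlaps were taken from GENCODE release 44 on GRCh38 for 17355 tested genes, and promoters from RefSeq. TPM was computed from the counts without TMM factors. Figures were drawn with matplotlib. Samples within a group varied beyond Poisson noise (chi-square per degree of freedom 6.18 to 32.8).

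Per-sample values and full statistics were given for VHL and, in each complex, for the called genes with the 2 largest rises and the 2 largest falls (all genes in complexes of 3 or fewer); other genes singled out were chosen after their values were seen. In each pathway list the 2 called genes with the largest absolute change and a mean of at least 50 normalized counts were named. PKD1, and genes given with levels that had over 20% of exonic bases inside another gene, were marked as uncertain. Members and lists were chosen with earlier results of these data known. Some genes planned for the pathway lists are not reported here, and the lists were counted without them.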

Additional observations from a re-analysis of the deposited data

How the results depend on the processing

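The counts called over the 40 cilium genes and over all genes stayed within 1.5 times in the 14 alternatives, except 7 cilium genes higher with library size alone and 4 lower with GC content and length offsets; counts within single complexes moved further. The median log2 fold change of the cilium genes, 0.04, was 0.15 with upper quartile factors, 0.22 with the offsets, -0.16 with library size alone, -0.00091 without a filter beyond 1 count, and 0.014 to 0.11 when 1 sample was left out. The replicate numbers did not pair the samples (correlations of same-numbered deviations 0.151, -0.0897 and 0.055); with a replicate block, 13 cilium genes were higher and 9 lower, as without it, the median was 0.05, no call changed, and ARL6 was at 0.041.

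Turns of sign are listed here for the 40 cilium genes and for BBIP1, and not for the other pathway genes. They affected genes that were not called and, with the offsets, 2 called genes (IFT57 and BBIP1). The genes were TMEM216 (0.0067) and ARL6 (0.032) with DESeq2, ARL6 (0.024) and TMEM216 (0.0089) with relative log expression factors, TMEM67 (0.086), TMEM216 (0.10), IFT52 (0.063), PKD2 (0.0023) and ARL6 (0.11) with upper quartile factors, KIF3B (-0.0255) and BBS12 (-0.0034) without the filter, and TMEM216 (0.016), TMEM67 (0.0026) and ARL6 (0.027) with at least 10 reads in every sample. With library size alone they were B9D2 (-0.15), BBS12 (-0.16), IFT22 (-0.12), BBS4 (-0.11), KIF3B (-0.18), KIF3A (-0.057), IFT88 (-0.052), IFT80 (-0.012) and IFT46 (-0.11), none of them called. With the offsets they were IFT57 (0.013) and BBIP1 (0.059), whose calls were lost, B9D2 (-0.58) and TMEM67 (0.46), then called, and IFT52 (0.14), ARL6 (0.55) and PKD2 (0.12), not called. Leaving out 1 sample gave -0.12 to 0.012 for IFT52, -0.017 to 0.38 for IFT80, -0.029 to 0.32 for KIF3A, -0.14 to 0.23 for BBS4, -0.19 to 0.35 for ARL6, -0.15 to 0.31 for BBS12, -0.15 to 0.13 for TMEM67, -0.18 to 0.16 for TMEM216, -0.18 to 0.0021 for MKS1 and -0.063 to 0.18 for B9D2, none of them called. The cause of these changes was not tested. ARL6 had low counts and was not called, and changes within its interval of -0.61 to 0.60 cannot be told from none.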
